A study of Homo sapiens with 4 samples.

Results

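Secreted matricellular and adhesive glycoproteins are represented here by 7 genes, FN1, THBS1, TGFBI, TNC, SPARC, CYR61 and CTGF, and the crosslink sites of their RNAs were described in PDCD4 and IgG iCLIP. A site belonged to a gene when its deposited gene label held exactly that symbol, whatever its score. All 7 genes had sites in both lists, and together they held 367 of the 158922 PDCD4 sites and 92 of the 111361 IgG sites. They are 7 of the 14416 genes with a site in either list. The annotation used here names CYR61 CCN1 and CTGF CCN2.

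The cells were MCF10A, an established line of non-transformed breast epithelial cells, labelled wild type and grown in the same supplemented medium for both groups. In iCLIP, UV light links RNA to the protein that touches it, the protein is immunoprecipitated, and reverse transcription tends to stop at the linked nucleotide, so that each site is 1 nt wide. Replicates immunoprecipitated with an antibody to PDCD4 (n = 2) and with control IgG (n = 2) were merged by the authors into 1 list each. A site's score is the number of cDNAs counted there, and the scores summed to 409308 cDNAs for PDCD4 and 276139 for IgG. With 1 pooled value a group there is no spread between replicates and no test, and the 95% intervals given with ratios cover counting error only. How cDNAs were collapsed, and whether the replicates came from separate cultures, is not given in the sources used here.

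PDCD4 is an RNA-binding tumour suppressor, best known for inhibiting a helicase of translation initiation. Matricellular proteins are secreted into the matrix, where they act less as scaffold than as signals: they bind integrins, other matrix proteins and growth factors, and so set how firmly a cell adheres and spreads. Fibronectin, encoded by FN1, is itself a structural glycoprotein that integrins grip. Several of these genes are classic targets of TGF-beta signalling and of the transcription coactivators YAP and TAZ, and cultured epithelial cells secrete them as they settle on a surface.

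The bases at the member sites are shown first, since they place the crosslinks within each mRNA. The lines give, for each member, the PDCD4 site with the highest score (the first along the transcript where several tie), and then 3 more sites that the description below turns on and that were chosen after their values were seen. Each is 30 bases of GRCh38 on the transcribed strand, 5′ to 3′, with the crosslinked base in capitals, T standing for U.
THBS1, coding, exon 15, score 11, chr15:39591194-39591223, plus strand: aactgtccattccatTacaacccagctcag
TGFBI, coding, exon 4, score 7, chr5:136046340-136046369, plus strand: ccactctcaaaccttTacgagaccctggga
FN1, coding, exon 11, score 4, chr2:215420768-215420797, minus strand: gtgcattgttgatgaCatcacttacaatgt
CYR61, coding, exon 3, score 6, chr1:85582048-85582077, plus strand: tgtgtccccaagaacTatctctccccaact
TNC, coding, exon 3, score 3, chr9:115086525-115086554, minus strand: gagtgtgatgatggtTtcactggagctgac
SPARC, 3′UTR, exon 10, score 3, chr5:151662519-151662548, minus strand: cacctccaagcatttCatgaaaaagctgct
CTGF, coding, exon 3, score 3, chr6:131950471-131950500, minus strand: cagcggagagtccttCcagagcagctgcaa
THBS1, 3′UTR, exon 22, score 8, chr15:39597067-39597096, plus strand: aaagttatgttttttTtctatcatctggta
THBS1, 3′UTR, exon 22, score 6, chr15:39597304-39597333, plus strand: ttttgacctcccattTttactatttgccaa
CYR61, 3′UTR, exon 5, score 6, chr1:85583629-85583658, plus strand: aaatgattttaatttTatattcagtgaaaa
Among the 10 sites shown, the crosslinked base was T or C at each, but this did not hold for all member sites. Over all 367 PDCD4 member sites A stood at 16.9% and G at 11.7%, beside 13.5% and 13.4% of all PDCD4 sites. Over all 367 PDCD4 member sites T stood at 45.5% (95% Wilson interval 40.5% to 50.6%), beside 46.7% of all PDCD4 sites. In the 3′UTRs of the members T stood at 62.4% of 133 sites (53.9% to 70.2%), beside 52.5% of all 3′UTR sites, and in their coding sequence at 32.6% of 187 sites (26.3% to 39.6%), beside 34.4%. Of the 133 3′UTR sites 93 were in THBS1, 32 of them within 118 nt. The intervals treat such neighbours as independent, so the 3′UTR value mainly describes THBS1. The 55 IgG member sites in 3′UTRs had T at 54.5% (41.5% to 67.0%), which overlaps the PDCD4 interval.

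The comparison of PDCD4 with IgG asks which RNAs the protein contacts beyond what the procedure brings down by itself. The mRNAs of THBS1, TGFBI, FN1 and CYR61 took a larger share of the PDCD4 list than of the IgG list, by 2.54-fold, 3.87-fold, 2.91-fold and 6.83-fold. SPARC took a smaller share, by 4.45-fold. TNC and CTGF had 18 and 7 cDNAs over both lists, under the minimum of 20 cDNAs set for reading a ratio. Summed over the 7 genes, the PDCD4 list held 1059 cDNAs (0.259% of the list) and the IgG list 253 (0.0916%), a log2 ratio of 1.49 (1.30 to 1.69).

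A gene was counted as higher or lower when its share differed by 2-fold or more, with 1 cDNA added to each sum. Of the 7 members, 5 reached the minimum of 20 cDNAs, 4 of these were higher with PDCD4 and 1 was lower. Over all 7305 genes that reached the minimum, 16.4% were higher and 16.1% lower. Log2 ratios above 0 were held by 46.2% of them, and their median was -0.10, beside 1.54 for the 5 members and 1.34 for all 7. SPARC lay among the lowest 1.83% of genes and CYR61 above 97.5% of them. SPARC reached the minimum only through its 17 IgG cDNAs, beside 5 with PDCD4, so its low rank is no independent sign that members differ. Counted as sites, its log2 ratio was -1.74 (-3.69 to 0.22). When sites in introns were left out and the list totals were counted over exons alone, THBS1 fell to a log2 ratio of 0.93 and FN1 to 0.96, so that 2 members stayed past 2-fold, beside 18.8% of 4226 genes.

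**Figure D1:**
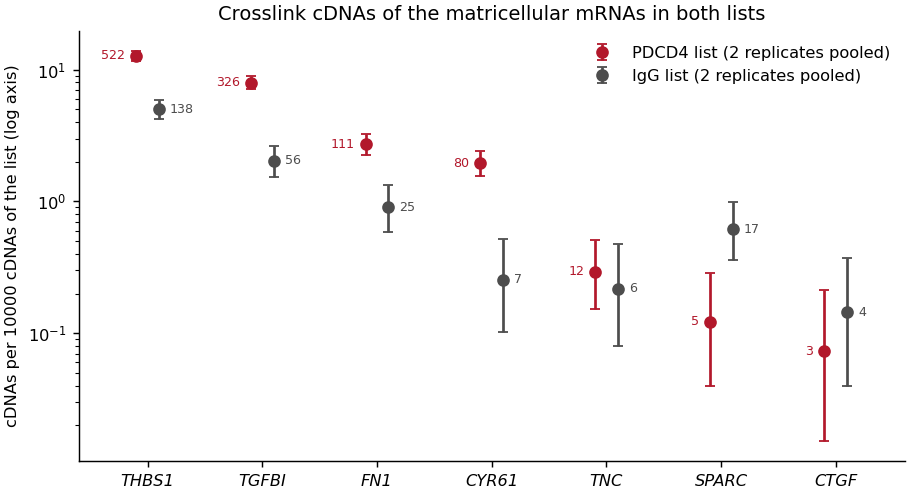
Each member's cDNAs per 10000 cDNAs of the list (y axis, logarithmic), with PDCD4 in red and IgG in grey, exact 95% Poisson intervals as bars and the cDNA count beside each point. The intervals of the 2 lists are apart for THBS1, TGFBI, FN1 and CYR61 with PDCD4 higher, and for SPARC with IgG higher, while those of TNC and CTGF overlap.

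THBS1 encodes thrombospondin-1, a trimeric glycoprotein known for activating latent TGF-beta and for binding CD47 and CD36. It lies on chromosome 15 (39581079 to 39599466, plus strand, ENSG00000137801), and its canonical mRNA is 7789 nt long in 22 exons. The PDCD4 list gave it 522 cDNAs at 183 sites, or 12.8 cDNAs per 10000 (11.7 to 13.9), the rank of 37 among all genes. The IgG list gave 138 cDNAs at 53 sites, or 5.00 per 10000 (4.20 to 5.90). Its log2 ratio of 1.34 (1.07 to 1.61) lay above 89.0% of the genes tested. THBS1 was thus at once the member with the most cDNAs in both lists and the lowest ratio of the 4 that were higher with PDCD4.

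TGFBI encodes a secreted protein with fasciclin domains that is induced by TGF-beta and binds collagens and integrins. Its gene spans 136028988 to 136063818 on the plus strand of chromosome 5 (ENSG00000120708) and its mRNA 2712 nt in 17 exons. It held 326 cDNAs at 103 sites with PDCD4, or 7.96 per 10000 (7.12 to 8.88), and 56 at 19 sites with IgG, or 2.03 (1.53 to 2.63). The log2 ratio was 1.95 (1.55 to 2.36), above 94.4% of genes. THBS1 and TGFBI together supplied 80.1% of the members' PDCD4 cDNAs, so values summed over the members mostly describe this pair.

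FN1 (chromosome 2, 215360440 to 215436073, minus strand, ENSG00000115414) has the most exons of the members, 46 in an mRNA of 8390 nt. It held 111 cDNAs at 47 sites with PDCD4, or 2.71 per 10000 (2.23 to 3.27), and 25 at 9 sites with IgG, or 0.905 (0.586 to 1.34), a log2 ratio of 1.54 (0.92 to 2.15). No FN1 site had a score above 4 with PDCD4, so its listed cDNAs were spread over many positions rather than stacked at a few.

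CYR61 encodes a member of the CCN family, small cysteine-rich proteins that bind integrins and heparan sulphate and that are typical YAP targets. It lies on chromosome 1 (85580761 to 85584589, plus strand, ENSG00000142871), with an mRNA of 2278 nt in 5 exons. The PDCD4 list held 80 cDNAs at 26 sites, or 1.95 per 10000 (1.55 to 2.43). The IgG list held 7 cDNAs at 2 sites, or 0.253 (0.102 to 0.522). The log2 ratio of 2.77 (1.72 to 3.82) was the highest of the members and its interval the widest of the 4, because the IgG sum was so small.

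SPARC, the collagen-binding protein also called osteonectin (chromosome 5, 151661096 to 151686975, minus strand, ENSG00000113140), had the opposite order, with 5 PDCD4 cDNAs at 2 sites and 17 IgG cDNAs at 6 sites. Its log2 ratio was -2.15 (-3.49 to -0.82). It reached the minimum of 20 cDNAs through the IgG list. All 8 sites lay in the 3′UTR within the last exon, and no IgG site was within 20 nt of a PDCD4 site. TNC, which encodes the hexameric tenascin-C (chromosome 9, 115019575 to 115118207, minus strand, ENSG00000041982), had 12 cDNAs at 5 PDCD4 sites and 6 at 2 IgG sites, a log2 ratio of 0.33 (-1.0 to 1.65). Of its PDCD4 sites 4 were coding, in exons 3, 4, 11 and 13, and 1 was intronic. CTGF, the connective tissue growth factor of the CCN family (chromosome 6, 131948176 to 131951372, minus strand, ENSG00000118523), had 1 site in each list, of 3 cDNAs with PDCD4 and 4 with IgG. At these sums a difference between the lists was not detectable for TNC and CTGF.

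Each pair of the 5 members with enough cDNAs was compared, 10 pairs in all. In order of log2 ratio the members were CYR61, TGFBI, FN1, THBS1 and SPARC, and of neighbours in that order only THBS1 and SPARC differed beyond counting error, by 3.50 (2.14 to 4.86). CYR61 over TGFBI was 0.82 (-0.30 to 1.94), TGFBI over FN1 0.41 (-0.32 to 1.15) and FN1 over THBS1 0.20 (-0.48 to 0.87). Further apart in the order, CYR61 exceeded THBS1 by 1.43 (0.35 to 2.51) and FN1 by 1.23 (0.02 to 2.45), and TGFBI exceeded THBS1 by 0.61 (0.12 to 1.10). CYR61, TGFBI and FN1 each exceeded SPARC by 3.69 or more. These intervals were not adjusted for the number of pairs, and SPARC entered the pairs only through its IgG cDNAs.

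**Figure D2:**
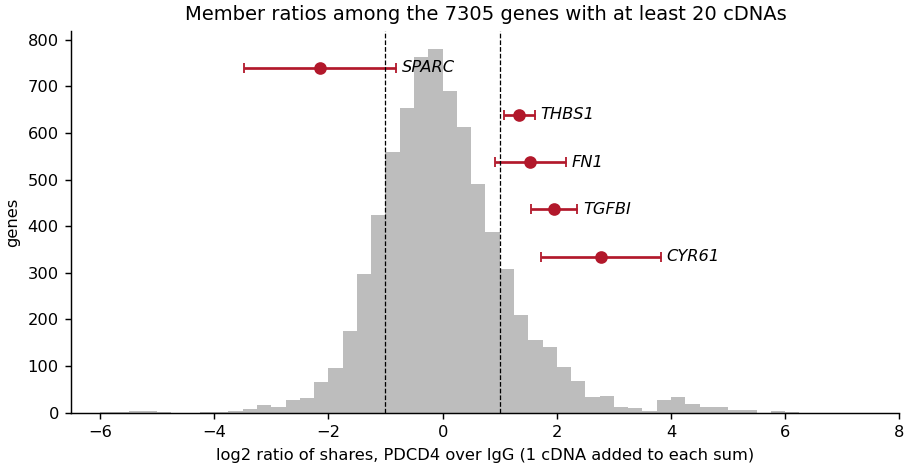
Histogram of the log2 ratio of shares (x axis) over the 7305 genes with at least 20 cDNAs (y axis, genes per bin), with the 5 members that reached this minimum as points, placed at arbitrary heights, with 95% counting intervals. Dashed lines mark 2-fold in each direction. THBS1, FN1, TGFBI and CYR61 lie right of the upper line and SPARC left of the lower one.

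Levels between genes can be set side by side only per length. On the scale of exonic cDNAs per kb of mRNA, TGFBI led in the PDCD4 list with 95.5, followed by THBS1 with 66.5, CYR61 with 35.1 and FN1 with 12.2. SPARC, CTGF and TNC had 1.45, 1.28 and 1.18. In the IgG list TGFBI and THBS1 stood close together, at 15.9 and 15.7 cDNAs per kb, SPARC came next with 4.93, and CYR61 had 3.07, FN1 2.74, CTGF 1.71 and TNC 0.235. The same 2 mRNAs therefore led both lists per length. RNA abundance was not analysed here, so a larger number of cDNAs from an mRNA and a larger amount of that mRNA in the cells cannot be told apart within a list. The ratio sets the same mRNA against itself, but over listed sites only. Whether the ratio is free of abundance was not tested.

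The study's methods keep sites with a score greater than 5, a filter that the deposited lists do not include. Of the 367 PDCD4 member sites 14 exceeded it, or 3.81% (95% Wilson interval 2.29% to 6.30%), beside 1.48% of all PDCD4 sites. Of the 92 IgG member sites 1 did, or 1.09% (0.192% to 5.90%), beside 0.690% of all IgG sites. THBS1 held 8 of the PDCD4 sites with 58 cDNAs, TGFBI 4 with 27 and CYR61 2 with 12, and the IgG site, with a score of 6, was in TGFBI. Among all genes with a site, 7.51% held a PDCD4 site above 5. From these sites alone THBS1 and CYR61 were past 2-fold, each with no IgG site listed above 5, and TGFBI was not, with a log2 ratio of 0.04 (-1.15 to 1.24). Of the 157 genes with 20 cDNAs or more at such sites, 51% were higher with PDCD4, and CYR61 did not reach that minimum.

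The study also asks in which parts of transcripts PDCD4 is bound. Members' PDCD4 cDNAs lay mainly in coding sequence, with 537 cDNAs at 187 sites or 50.7% of the cDNAs, and in 3′UTRs, with 382 at 133 sites or 36.1%. Introns held 82 cDNAs (7.74%), noncoding exons of the same genes 38 and 5′UTRs 20. The members' IgG cDNAs were divided the other way round, with 74 coding cDNAs (29.2%) and 133 in 3′UTRs (52.6%). Counted as sites, coding sequence held 51.0% (45.9% to 56.0%) with PDCD4 and 25.0% (17.3% to 34.7%) with IgG. Over all listed sites, coding sequence held 22.2% of PDCD4 cDNAs and 10.3% of IgG cDNAs, and introns 47.8% and 65.0%, so a higher coding share with PDCD4 was a property of the whole lists too. A site in coding sequence of one transcript and in a UTR of another was counted as coding; in the opposite order the members' coding share was 38.9% with PDCD4 and 18.2% with IgG.

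THBS1 had many cDNAs in both regions. In its coding sequence the PDCD4 list held 262 cDNAs at 89 sites and the IgG list 20 at 5 sites, a log2 ratio of 3.08 (2.44 to 3.72). In its 3′UTR, 256 cDNAs at 93 sites stood against 94 at 41 sites, a log2 ratio of 0.87 (0.53 to 1.21). The listed PDCD4 cDNAs of THBS1 were thus divided about evenly between the regions, whereas its listed IgG cDNAs lay mostly in the 3′UTR. Listed lone IgG sites in its coding sequence had 4 or 5 cDNAs, and weaker ones may have been dropped. The coding ratio and its difference from the 3′UTR therefore hold for listed cDNAs only. The difference between the ratios was 2.21 (1.49 to 2.94). Over 681 genes with enough cDNAs in both regions the median difference was 0.62, 67.3% were above 0, and THBS1 exceeded 86.0% of them. Listed sites in THBS1 introns held 4 PDCD4 cDNAs at 1 site and 16 IgG cDNAs at 5 sites. Most of these IgG sites had 3 cDNAs. No PDCD4 site of THBS1 lying alone, without another within 20 nt, had fewer than 4. A lone PDCD4 site of 3 cDNAs may thus not be listed here, so the order of the lists in these introns cannot be read from the sums.

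TGFBI was past 2-fold with PDCD4 in coding sequence, 3′UTR and introns alike. Its coding sequence held 151 cDNAs against 24 with IgG (log2 ratio 2.04, 1.43 to 2.65), its 3′UTR 76 against 16 (1.61, 0.85 to 2.37) and its introns 67 against 13 (1.71, 0.88 to 2.54). The difference between coding sequence and 3′UTR, 0.42 (-0.55 to 1.40), was within counting error. FN1 was almost wholly coding, with 94 of its 111 PDCD4 cDNAs and 21 of its 25 IgG cDNAs there and a coding log2 ratio of 1.54 (0.87 to 2.21). CYR61 was the reverse, with 43 PDCD4 cDNAs at 13 sites in its 3′UTR and 16 at 6 sites in its 5′UTR and no IgG site listed in either. Its coding sequence held 17 against 7, a log2 ratio of 0.60 (-0.60 to 1.80). The ratio in coding sequence minus that in the 3′UTR was -4.29 (-7.39 to -1.19), opposite in sign to THBS1, and its size rests on the added cDNA in the 3′UTR.

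Of the 4 members with 20 or more coding cDNAs, FN1, THBS1 and TGFBI were past 2-fold in coding sequence, where 53.8% of 1440 genes were, so that being higher there was common. THBS1 exceeded 89.9% of these genes, TGFBI 76.9%, FN1 63.0% and CYR61 33.2%. In the 3′UTR, TGFBI and CYR61 were past 2-fold and THBS1 was not, where 23.3% of 1895 genes were, and SPARC was lower, as were 11.3%. By its PDCD4 sum THBS1 ranked 15 among the coding sequences and 9 among the 3′UTRs.

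**Figure D3:**
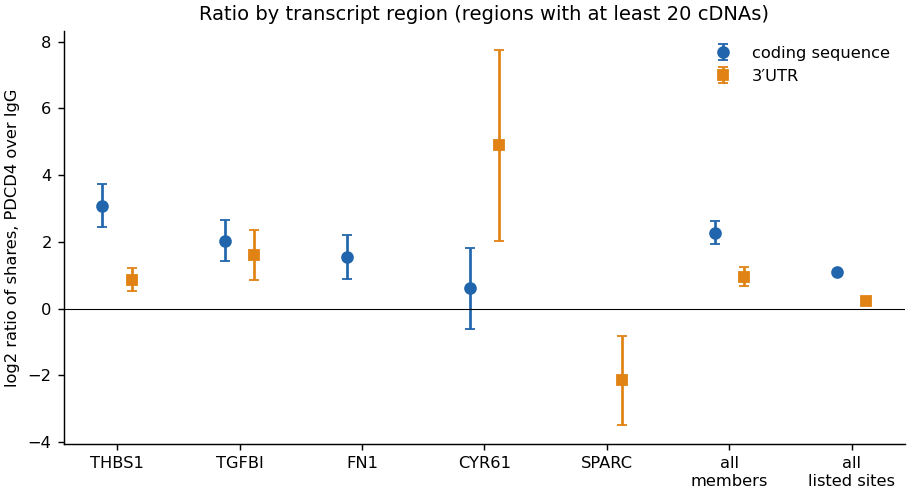
Log2 ratio of PDCD4 over IgG shares (y axis) in coding sequence (blue circles) and 3′UTR (orange squares) for members, all members summed and all listed sites, with 95% counting intervals, for regions with at least 20 cDNAs over both lists. The 2 intervals are apart for THBS1, with coding sequence higher, and for CYR61, whose 3′UTR value rests on no listed IgG site; those of TGFBI overlap.

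The coding sequence was divided in 3 equal parts, and members differed in where their PDCD4 sites lay. FN1 had 24, 8 and 6 sites from the first to the last part, with 63.2% (47.3% to 76.6%) in the first. THBS1 had 28, 46 and 15, with 51.7% (41.5% to 61.8%) in the middle part, and TGFBI 13, 24 and 11, with 50.0% (36.4% to 63.6%) there. Over all members the last part held 34 of 186 sites, or 18.3% (13.4% to 24.5%), and 17.0% of the cDNAs, beside 33.3% of sites over all genes. The members' IgG sites had 5 of 23 there, or 21.7% (9.66% to 41.9%), which overlaps the PDCD4 value. With the coding sequence in 10 equal parts, the last held 1 of the 186 PDCD4 sites and 2 of the 23 IgG sites, beside 11.0% of PDCD4 sites over all genes. Sites were spread over many exons, 25 of 46 in FN1, 16 of 22 in THBS1 and 13 of 17 in TGFBI.

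Few member sites lay near exon ends, as was the case over all genes. Of the 192 PDCD4 member sites in exons before the last, 1 lay within the last 60 nt of its exon, and of 23 IgG sites 1 did. Such positions make up 35.4% of these exons in FN1, 34.2% in THBS1 and 44.5% in TGFBI. Over all genes 4.78% of PDCD4 and 7.10% of IgG sites lay there, beside 36.0% of positions, so the low share is found in both whole lists and is not particular to the members. How reads across splice junctions were aligned is not given in the sources used here, and its part in this was not tested. Levels per kb of mRNAs with many short exons, such as FN1, count these nearly empty positions in their length.

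**Figure D4:**
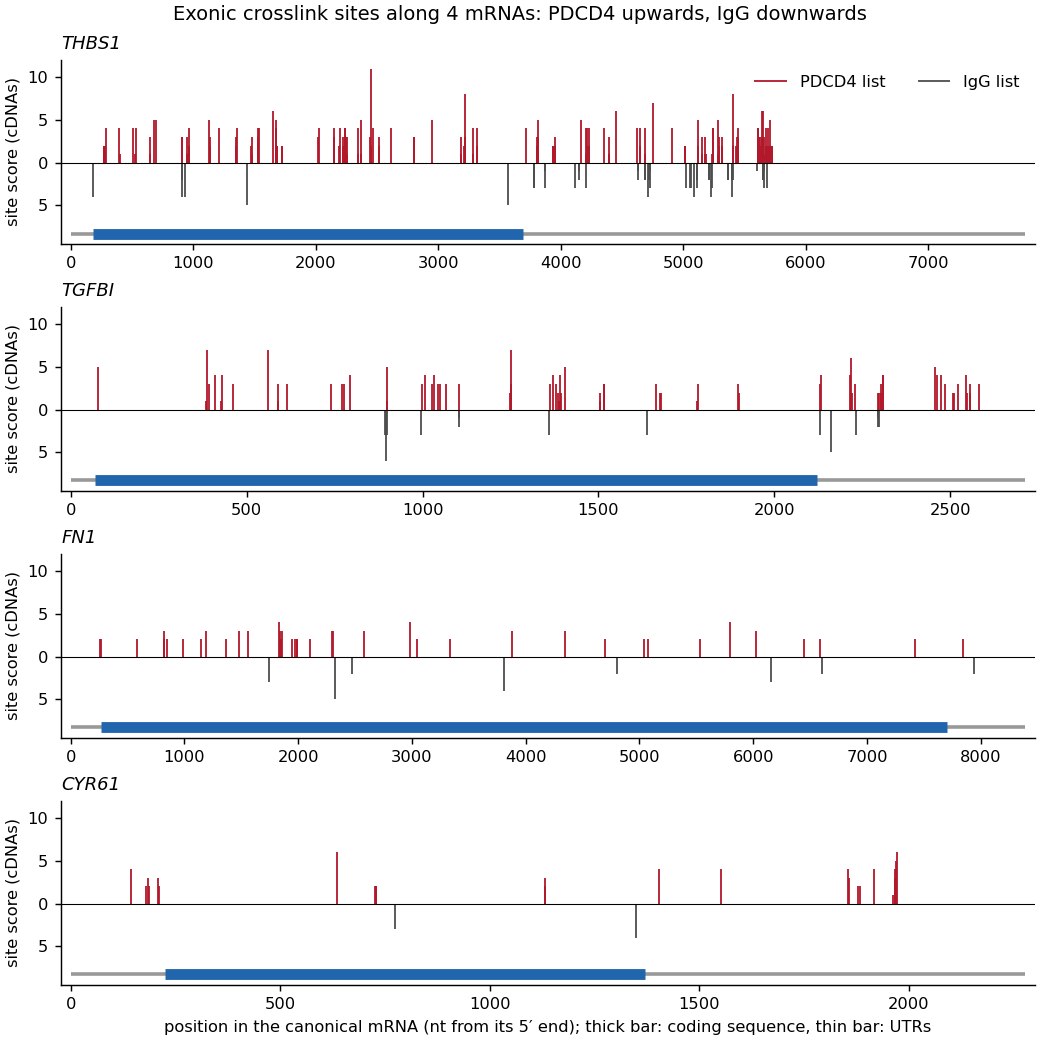
Site scores in cDNAs (y axis) along the canonical mRNAs of THBS1, TGFBI, FN1 and CYR61 (x axis, nt from the 5′ end), PDCD4 upwards in red and IgG downwards in grey, with the coding sequence as a thick bar. THBS1 shows a dense group of PDCD4 sites at 5608 to 5725 nt and none beyond it, FN1 has low scores throughout with more sites in the first part of its coding sequence, and the sites of CYR61 in its UTRs have no IgG counterpart.

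The largest group of member sites, joining PDCD4 sites within 20 nt of each other, lay in the 3′UTR of THBS1. It covered 118 nt (chr15:39597285-39597402) with 32 sites and 85 cDNAs, 16.3% of the member's PDCD4 cDNAs, and the IgG list had 6 sites with 12 cDNAs in it. The THBS1 window with a score of 6 printed above lies within it. Coding groups in THBS1 were smaller: 25 cDNAs at 7 sites in exon 10, 25 at 9 sites in exon 13 and 22 at 5 sites in exon 15, none with an IgG site, and the last includes the highest member score of 11. The 3′UTR of THBS1 is 4097 nt long, yet the last PDCD4 site stood at its nt 2033 and the last IgG site at nt 1995, so neither list had a site in the final 2064 nt.

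TGFBI had its largest groups in coding exons, with 24 cDNAs at 8 sites in exon 10, 23 at 7 in exon 8 and 20 at 6 in exon 4, all without an IgG site. A 3′UTR group of TGFBI held 17 PDCD4 cDNAs at 6 sites and 4 IgG cDNAs at 2. In CYR61 a group of 9 nt in the 3′UTR (chr1:85583636-85583644) held 20 cDNAs at 6 sites, 25.0% of the gene's total, and no IgG site. It ends at the site printed above, the last in its 3′UTR at nt 602 of 908. FN1 had its largest group in exon 11, of 14 cDNAs at 5 sites or 12.6% of its total, and 30 of its 36 groups were single sites. Lone PDCD4 sites were listed down to 2 cDNAs in FN1, but only from 3 in TGFBI and from 4 in THBS1 and CYR61. Numbers of single-site groups therefore cannot be compared between these members.

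TGFBI had the most listed intronic PDCD4 cDNAs of the members, although introns held 20.6% of its PDCD4 cDNAs, beside 47.8% over all listed sites. Outside the exons of its canonical transcript it had 31 PDCD4 sites with 102 cDNAs, in 9 introns, and 5 IgG sites with 16 cDNAs. Intron 2 held 27 PDCD4 cDNAs, intron 7 held 20 and intron 4 held 18. Intron 4 is 355 nt long, so it had 50.7 PDCD4 cDNAs per kb, beside 3.18 per kb for all 102 cDNAs over the gene's whole intronic length. All 5 PDCD4 sites in it lie in exons of noncoding transcripts of TGFBI itself. FN1 had 6 PDCD4 sites outside its canonical exons, and THBS1, TNC and CYR61 had 1 each. Several of the TGFBI intronic sites were lone sites of 3 cDNAs, and such sites may not be listed in THBS1 or CYR61. Numbers of intronic sites thus cannot be compared between these members.

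In THBS1 and TGFBI, the members with the most sites, many IgG sites stood beside PDCD4 sites. Of the 53 IgG sites of THBS1, 28 (52.8%) were within 20 nt of a PDCD4 site, and of its 183 PDCD4 sites 62 (33.9%) were within 20 nt of an IgG site. For TGFBI these were 14 of 19 (73.7%) and 22 of 103 (21.4%), and for FN1 2 of 9 and 2 of 47. No site of CYR61, TNC, SPARC or CTGF had a neighbour in the other list, but each of these genes had 6 IgG sites or fewer. Such shares depend on how densely a gene's sites lie. They were not computed over all genes, so no trait of the members is read from them. Exactly shared positions numbered 4 in THBS1 and 4 in TGFBI, or 8 of the 367 PDCD4 member sites, beside 721 of all 158922 PDCD4 sites. The share was larger among the members, but shared positions were not confined to them, although the methods state that crosslinks found with IgG were taken out of the PDCD4 data.

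Genes related to the members by family were mostly without sites. Of the other thrombospondins 1 of 4 had any, THBS3, with 8 PDCD4 and 6 IgG cDNAs, and none of the 3 other tenascins did. Of 4 other CCN genes WISP2 alone had sites, with 12 PDCD4 cDNAs and no IgG site listed. In the SPARC family 3 of 7 genes had sites, and of these FSTL1 (21 against 35 cDNAs, log2 ratio -1.28) and SPOCK1 (14 against 21, -1.12) were lower with PDCD4, as SPARC was, and SMOC1 (31 against 12, 0.73, -0.20 to 1.66) was not.

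Other matrix glycoproteins held 11 genes of 22 with at least 20 cDNAs, of which 4 were higher with PDCD4 and none lower, with a median log2 ratio of 0.43. These were AGRN, which encodes the heparan sulphate proteoglycan agrin (562 against 141 cDNAs, 1.42), and LTBP2 (162 against 27, 1.97), LTBP4 (49 against 14, 1.17) and LTBP3 (81 cDNAs, no IgG site listed), of the family of latent TGF-beta binding proteins. AGRN and THBS1 had like sums and like ratios. Laminin chains had 4 higher and none lower of 7 (median 1.14), led by LAMA5 (932 against 180, 1.80), and basement membrane collagens 3 higher and none lower of 7 (median 0.64), led by COL4A2 (274 against 62, 1.56). The medians of both lie below the 1.54 of the 5 members, and with 7 genes or fewer in each no difference between these lists was tested.

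Receptors that bind the members' proteins did not move one way. Of 16 with at least 20 cDNAs, 2 were higher, ITGA3 (493 against 122 cDNAs, 1.44) and ITGB5 (92 against 28, 1.11), and 3 were lower, the thrombospondin receptor CD47 (11 against 21, -1.44), the syndecan SDC4 (31 against 50, -1.24) and the fibronectin receptor subunit ITGA5 (33 against 45, -1.0). EGFR had the largest sum, 595 against 632 cDNAs, a log2 ratio of -0.65 (-0.82 to -0.49). The median over the 16 was -0.07, beside -0.10 over all genes. The TGF-beta and YAP pathway, which controls several members, had 1 gene of 14 higher, SMAD4 (66 against 11, 1.91), and 1 lower, WWTR1, which encodes TAZ (42 against 62, -1.12), with a median of -0.24. Its largest sum was that of the transcription factor TEAD1, 211 against 233 cDNAs and a log2 ratio of -0.71 (-0.98 to -0.44).

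The cell type label was checked against marker genes. All 10 breast epithelial markers had sites, with 1938 PDCD4 cDNAs and 605 IgG cDNAs. Of 6 fibroblast markers DCN alone had a site, of 2 cDNAs in each list, and the collagen genes COL1A1, COL1A2 and COL3A1 were without a listed site. None of 3 immune and 3 endothelial markers had one. Members that fibroblasts are also known for, FN1, SPARC and TNC, were thus read in lists in which these defining fibroblast markers were at or near 0. KRT14 was also near 0, so a low sum for a single marker does not by itself set the cell types apart.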

How the data were processed

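iCLIP of MCF10A cells with PDCD4 antibody or IgG was read from 1 deposited list of crosslink sites for each, in which the authors had merged 2 replicates. The score per site in the deposited lists is a raw cDNA count, not normalized. The authors used iCount, whose version is not given in the sources used here, with the Ensembl release 88 genome. The peaks function of iCount was applied, and the lowest count at which it lists a site in each gene is not given either. Sums leave out any site that this step dropped. Their methods describe subtraction of IgG sites and removal of scores up to 5. The lists still hold such low scores, and all listed sites were used.

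Scores were summed per gene label and divided by the list total. Ratios have 1 cDNA added and 95% Poisson counting intervals (log-normal approximation), and shares of sites have Wilson intervals. Both cover counting error only. Sites were assigned to GENCODE release 44 (GRCh38) with coding sequence taken first, then 3′UTR, 5′UTR, noncoding exon and last intron. Identifiers of 99.7% of sites in each list were in this annotation, and no site lay past a chromosome end. Sequences were read from GRCh38.

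Members and gene lists were chosen with earlier results of these data known. Besides the members, genes named are those of the relatives, receptor and pathway lists with at least 20 cDNAs and 2-fold or more, and the largest PDCD4 sum of each list. The markers KRT7, KRT14, DCN, COL1A1, COL1A2 and COL3A1 were named after their values were seen. The DESeq2 test of the authors' methods could not be repeated on pooled lists. Alternatives were score thresholds, numbers of sites, other totals, a pseudocount of 5, shared or multiply labelled sites left out, exonic sites, and other region rules. Python 3.11.15, numpy 2.4.6, pandas 2.3.3, scipy 1.17.1, statsmodels 0.14.6 and matplotlib 3.10.9 were used.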

Additional observations from a re-analysis of the deposited data

How the results depend on the processing

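No log2 ratio of a member, or of the members summed, changed sign under an alternative. With scores greater than 5 the log2 ratio of the summed members was 1.85, where the median over 157 genes was 1.33. With exonic sites alone the summed ratio was 1.02, where the median over 4226 genes was -0.07. The members past 2-fold were 2 of 7 under either. Of all genes with at least 20 cDNAs, 51% were higher with PDCD4 at scores greater than 5, and 18.8% with exonic sites. The counts at scores greater than 5 were made without the minimum of 20 cDNAs; with it THBS1 alone was past 2-fold there, since CYR61 had 12. At scores greater than 5 the related matrix, receptor and pathway genes past 2-fold numbered 3 in place of 7, laminins 1 in place of 4 and collagens 1 in place of 3, since few genes have sites there. With UTRs taken before coding sequence, the coding share of member cDNAs was 38.9% with PDCD4 and 18.2% with IgG, and at scores greater than 5 it was 53.6% with PDCD4 and 100% with IgG, from 1 IgG site, so that the order of the lists turned. Of single members, THBS1 ranged from 0.93 with exonic sites to 3.93 with scores greater than 5, where no IgG site is listed and the value rests on the added cDNA, and TGFBI was at 1.42 and 0.04 there. The other 55 values over the members or lists, and 62 of single members, stayed within counting error, or within 1.5 times for counts. The coding share was also computed from sites with scores greater than 1, an alternative chosen after seeing the data, and stayed within counting error. No paired analysis was possible because each list pools its replicates, and for the same reason no replicate could be left out. The lists' depth limits TNC and CTGF most, and the pooled lists give no measure of how far replicates differ.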
